A study of Mus musculus with 9 samples.

Results

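The receptors for glutamate, GABA and glycine were measured in laser-cut motor neurons of the lumbar spinal cord of mice with spinal muscular atrophy (SMA), a motor neuron disease caused by too little SMN protein. All genes were taken whose symbol in the platform annotation starts with Gria, Grik, Grin1, Grin2, Grin3, Grm and a number, Gabr, Gabbr, Glra or Glrb. These were 32 genes, each read by its brightest probe set that names this gene alone, of 12393 genes named on the array. The 9 Affymetrix arrays held cells of 1 mouse each, per the labels, in 3 groups of 3. These were wild-type mice operated on with vehicle, transgenic SMA mice operated on with vehicle, and SMA mice that received NSC (known elsewhere as neural stem cells). The operation was on day 1 after birth in every group and tissue was taken at 13 days; about 100 cells went into each cap. No label names the SMA alleles, the strain or the sex. Values are MAS5 signals, a linear intensity in arbitrary units, scaled by the authors to the same trimmed mean on every array.

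Fast transmission onto motor neurons uses receptors that are ion channels. Glutamate opens AMPA receptors (Gria genes), kainate receptors (Grik) and NMDA receptors (Grin) and excites the cell, while GABA-A receptors (Gabr) and glycine receptors (Glra and Glrb) pass chloride and inhibit it. Each is assembled from several subunits, so that the subunits a cell transcribes set the receptor's kinetics and drug sensitivity. Metabotropic glutamate receptors (Grm) and GABA-B receptors (Gabbr) act more slowly through G proteins. Astrocytes and other glia also transcribe some of these subunits.

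Several receptor genes lie side by side in the genome. In the annotation of assembly GRCm38.p6, Gabrg1 and Gabra2 are neighbours on chromosome 5, and Gria2 and Glrb are neighbours on chromosome 3. These 4 genes were among the few read above background, so the 250 bases before their start sites are shown, from RefSeq in GRCm38.p6 and each 5′ to 3′ on the gene's own strand. Capitals mark a GC box (GGGCGG or its complement) and, in Gria2, GGACAGCG or its complement, which is the right part of RE1, the element through which the repressor REST keeps neuronal genes silent in other cells.
Gabrg1 (chr5:70842618-70842867, minus strand): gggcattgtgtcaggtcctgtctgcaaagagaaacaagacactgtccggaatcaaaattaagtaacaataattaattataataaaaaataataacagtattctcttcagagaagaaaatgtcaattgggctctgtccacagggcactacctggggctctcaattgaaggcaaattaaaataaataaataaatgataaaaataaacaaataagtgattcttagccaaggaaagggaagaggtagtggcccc
Gabra2 (chr5:71095850-71096099, minus strand): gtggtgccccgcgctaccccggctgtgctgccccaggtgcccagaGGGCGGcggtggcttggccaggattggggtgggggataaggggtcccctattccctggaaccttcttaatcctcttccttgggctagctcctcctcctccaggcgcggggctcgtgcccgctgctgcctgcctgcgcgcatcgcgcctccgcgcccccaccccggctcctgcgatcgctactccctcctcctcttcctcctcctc
Gria2 (chr3:80802836-80803085, minus strand): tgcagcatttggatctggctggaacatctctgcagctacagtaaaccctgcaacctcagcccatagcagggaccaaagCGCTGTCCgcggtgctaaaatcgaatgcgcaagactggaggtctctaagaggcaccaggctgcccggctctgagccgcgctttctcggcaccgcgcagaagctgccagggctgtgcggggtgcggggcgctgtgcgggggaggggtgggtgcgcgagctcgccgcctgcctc
Glrb (chr3:80913661-80913910, minus strand): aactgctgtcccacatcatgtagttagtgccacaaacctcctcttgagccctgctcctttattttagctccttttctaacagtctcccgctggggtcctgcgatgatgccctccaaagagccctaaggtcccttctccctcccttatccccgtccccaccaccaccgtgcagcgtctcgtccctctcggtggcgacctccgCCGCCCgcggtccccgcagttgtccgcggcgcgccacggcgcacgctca

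The 2 neighbours on chromosome 5 differ in these windows, with 1 CpG and 35.6% G and C in Gabrg1 and 18 CpG and 70% in Gabra2. Gria2 holds 19 CpG and Glrb 20. RefSeq held 31 start sites for 25 of the 32 receptor genes. A GC box on either strand was in 13 of the 31 windows (41.9%, against 32.7% of the 32851 windows of all genes), TATAAA in 4 (12.9% against 12.4%), and the right part of RE1 in 1 (3.2% against 1%), that of Gria2. The left part of RE1 (TTCAGCACC, in 0.3% of all windows), CACGTG (6%) and TGACGTCA (1.5%) were in 0 of them. A match of letters does not show a site that is used.

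Most of the receptor genes were dim. The files give no detection calls, so a background line was set on each array at the 95th percentile of the signals of 84 genes known from other organs, such as liver (Alb), pancreas (Cela1), skin (Lor) and lung (Sftpc). The line lay between 27.8 (wild type 1) and 65.5 (SMA 2). Probe sets differ in how well they bind, so the line is a rough guide and says nothing of the order of 2 genes. Of the 32 receptor genes, 5 were above the line on all 9 arrays (Gabbr1, Gabrb1, Gabrg1, Gria2 and Gria3), and 21 were above it on none. By array, 21.9% to 34.4% of the receptor genes were above the line, against 44.1% to 60.5% of all named genes. Gabra2 and Glrb passed the line on 8 arrays, Gria1 on 7, Grik5 on 3, Gabrb2 on 2 and Gabrp on 1.

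On all 3 arrays of a group, 8 receptor genes were above the line in wild type, 6 in SMA and 7 in transplanted SMA. Those of wild type were the 5 above and Gabra2, Glrb and Gria1. In SMA, Glrb failed on SMA 1 (34.5 against a line of 38.5), and Gabra2 failed on SMA 2 (35.7 against 65.5). In transplanted SMA, Gria1 failed on 2 arrays. These counts compare each signal with a line that moved between arrays, and no test was made of them.

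**Figure D1:**
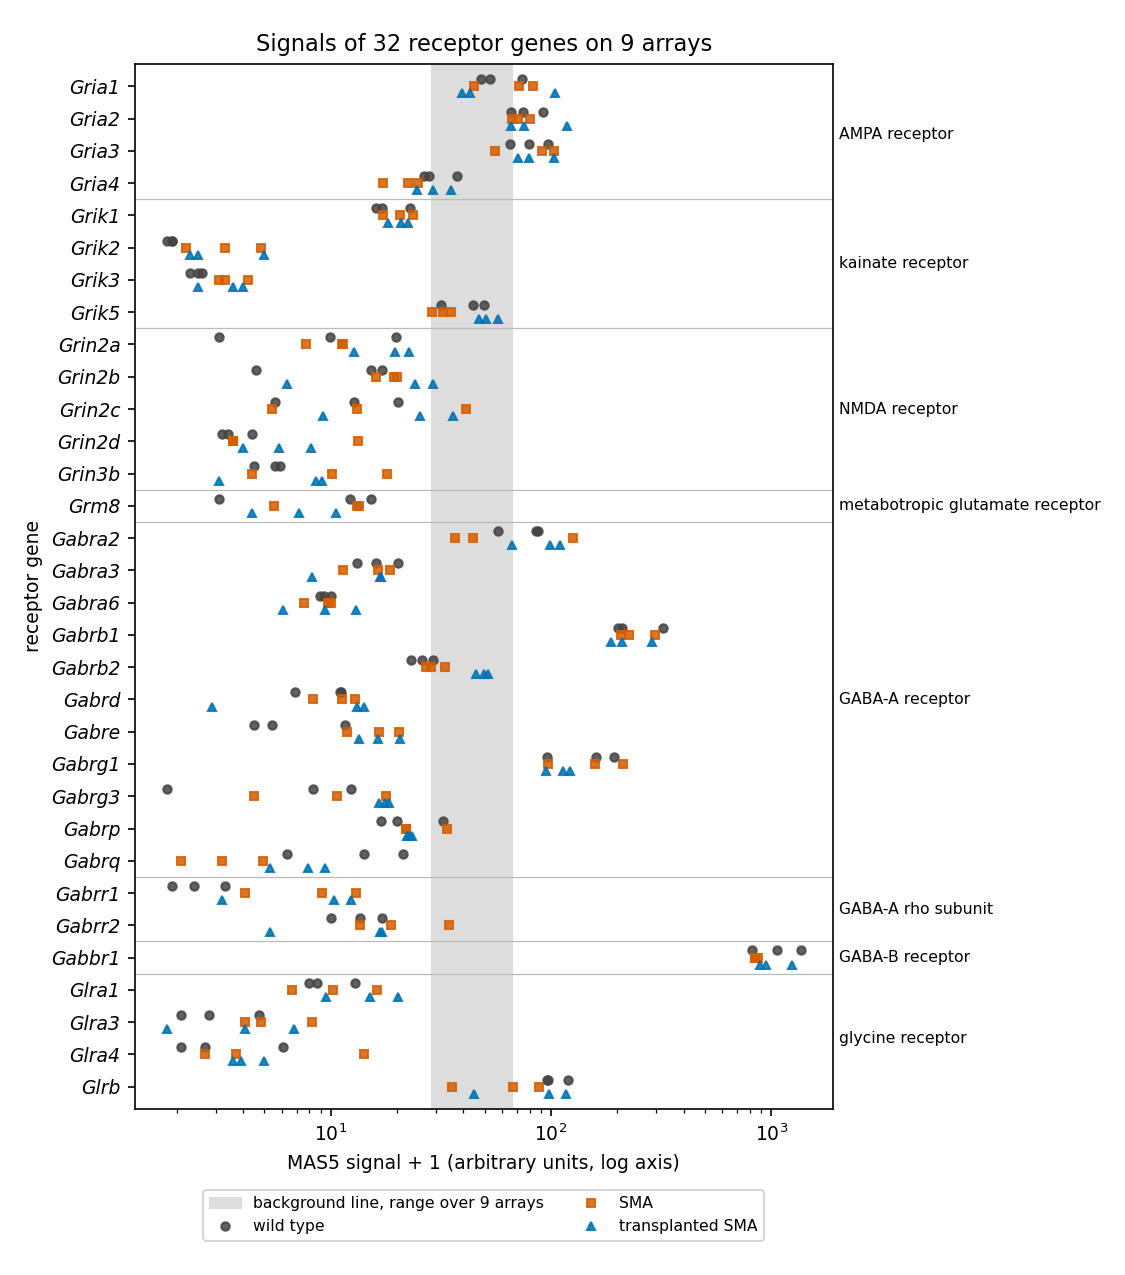
MAS5 signal plus 1 (arbitrary units, log axis) of each of the 32 receptor genes, with 1 point per mouse for wild type (circles), SMA (squares) and transplanted SMA (triangles), and the range of the background line over the 9 arrays in grey. Gabbr1, Gabrb1 and Gabrg1 lie to the right of the grey band on every array, while NMDA receptor, rho and glycine alpha subunits lie in or left of it.

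The label of motor neurons was checked with their markers. Of 11 measured, 0 were above the line on all arrays, and Slc18a3, Slc5a7, Isl1, Mnx1, Lhx3, Esrrb and Ret were above it on none. Nefh passed it on 8 arrays and Isl2 on 7. General neuronal genes were above the line on all arrays in 11 of 15 cases, astrocyte genes in 10 of 11, oligodendrocyte genes in 12 of 13 and microglial genes in 10 of 11. Of 13 interneuron markers, 2 were above the line on all 9 arrays and 3 on none (Slc6a5, Lmx1b and Pdyn). Gad1, the GABA-making enzyme of interneurons, was above it on all 9, Slc32a1 on 5 and Gad2 on 2. A receptor signal here can therefore not be assigned to a cell type, and fewer cells of a type and less RNA per cell cannot be told apart. Muscle transcripts were high on SMA 1 and SMA 2 (summed signal 2680 and 3318, against 140 to 327 elsewhere). Xist read 23.5 to 47.6 on 4 arrays, wild type 1 to 3 and SMA 3, and 366.1 to 879.5 on the others. Eif2s3y, a Y-linked gene, read 49 to 108.9 on the first 4, at most 0.5 on SMA 1, SMA 2 and transplanted SMA 1 and 2, and 84.8 on transplanted SMA 3. That array thus read both genes well above their lowest levels, which RNA of 1 untransplanted mouse would not give, and whether it holds RNA of another animal or of grafted cells cannot be told apart. Sex was therefore uneven between the groups, and its part in the differences was not tested. Smn1, at 1.3 to 5.1 on all arrays, was too dim to check the labels.

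The brighter 50% of probe sets was tested with limma, which kept 9 of the 32 receptor genes (28.1%, against 58.5% of all genes). The other 23 had mean signals of 1.86 to 33.8 over the 9 arrays. The faintest receptor gene tested was Grik5, with a mean of 40.9, and the brightest one left out was Gabrb2, with 33.8. Differences below are on a log2(signal + 16) scale, which understates the change of dim genes, and adjusted p-values are by Benjamini-Hochberg over all 11313 probe sets tested.

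AMPA receptors carry most fast excitation, and Gria2 is the subunit that makes the channel impermeable to calcium once its transcript is edited. Its signals were 90.7, 73.3 and 64.8 in the wild-type mice, 65.8, 79.5 and 70 in the SMA mice, and 64.8, 116.6 and 74.7 in the transplanted mice. The groups overlapped, with transplanted SMA 2 as the one high array. Its dimmer probe set read 16.5 to 60.7, with SMA 2 lowest and SMA 3 highest. Gria3 read 78.2, 96.2 and 64.1 in the wild-type mice, 90, 102 and 54.5 in the SMA mice, and 102.4, 78.3 and 69.8 in the transplanted mice. Its group means of 79.5 ± 16.1, 82.2 ± 24.7 and 83.5 ± 16.9 (SD, n = 3) lay within each other's spread.

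Gria1, the subunit best known from synaptic plasticity, read 47.3, 73.2 and 52 in the wild-type mice, 70.3, 82.1 and 43.6 in the SMA mice, and 38.5, 103.3 and 42 in the transplanted mice. The lowest and the highest of its signals were both in transplanted SMA. Its dimmer probe set, not tested, read 10 to 36.8 and passed the background line on wild type 1 alone (36.8 against 27.8). That probe set gave -0.30 for transplanted SMA minus SMA, where the brighter one gave -0.14. Gria4, a subunit with fast kinetics, was below the line throughout, at 25.4, 26.9 and 36.5 in the wild-type mice, 23.8, 16.2 and 21.4 in the SMA mice, and 28.2, 23.7 and 34.3 in the transplanted mice. Every SMA array read lower than every wild-type array, at levels where the background genes also lie.

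Of the kainate receptor subunits, Grik5 was the one tested. It makes a high-affinity subunit that forms channels only together with Grik1, Grik2 or Grik3. Its signals were 48.5, 43.4 and 30.6 in the wild-type mice, 31.5, 34 and 27.8 in the SMA mice, and 56.5, 49.8 and 46 in the transplanted mice. Every transplanted array lay above every SMA array, while wild type overlapped SMA. The gene was above the background line on 0 of 3 SMA arrays, 1 of 3 transplanted arrays and 2 of 3 wild-type arrays, so its values lie at the height of the background genes. The partner subunits Grik2 and Grik3 read at most 4 and 3.2, and Grik1 15.1 to 22.6.

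NMDA receptors, which pass calcium when glutamate binds to a depolarised cell, were above the line on no array for all 5 subunits measured, with Grin2c on SMA 3 level with it at 40.3. Grin2a read 2.1 to 21.7, Grin2b 3.6 to 28, Grin2c 4.4 to 40.3, Grin2d 2.2 to 12.3 and Grin3b 2.1 to 17. Grin3b, a subunit known from motor neurons, was no exception. Grm8, the one metabotropic glutamate receptor measured, read 2.1 to 14.2. Signals of this size do not show that the genes are silent.

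GABA-A receptors commonly join alpha, beta and gamma subunits, and 1 gene of each kind was above the line in wild type. Gabra2 read 56.4, 86.2 and 84.3 in the wild-type mice, 43.3, 35.7 and 124.5 in the SMA mice, and 65.4, 97.8 and 108.4 in the transplanted mice. SMA held both its 2 lowest signals and its highest one, with an SD of 49.2, against 16.7 in wild type and 22.4 in transplanted SMA. The spread within groups, pooled over all 3 groups, was 0.51 on the log2 scale. SMA 1 and SMA 2, where it was low, had the muscle transcripts and less summed astrocyte signal (12192 and 10914, against 18301 on SMA 3). Single astrocyte genes went both ways on SMA 1 and SMA 2. Gfap read 399.6 and 406.2, against 2206.1 on SMA 3, and Slc1a3 228.4 and 291.4, against 119.8. Summed oligodendrocyte signal was also lower there (28313 and 25058, against 44016), but the median log2 signal of that list was not (9.94 and 10.51, against 9.87). Summed signal of general neuronal genes was higher on SMA 1 and SMA 2 (5762 and 4396, against 2964 on SMA 3). So was that of interneuron markers (942 and 738, against 433). The part of these lists in the Gabra2 signal was not tested.

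Gabrb1 read 321.5, 209.6 and 199.4 in the wild-type mice, 296.1, 224.4 and 207 in the SMA mice, and 186.5, 208.5 and 287.9 in the transplanted mice. Its groups covered nearly the same range. Gabrg1, a gamma subunit also known from astrocytes, read 192.8, 158.4 and 95.3 in the wild-type mice, 211.2, 158 and 95.9 in the SMA mice, and 94.2, 121.4 and 112.2 in the transplanted mice. Wild type 3, SMA 3 and all 3 transplanted arrays were below the other 4, and the groups overlapped. Its second probe set, at 15.8 to 33.2, was not tested.

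Gabrb2, a beta subunit of widespread GABA-A receptors, was the brightest receptor gene outside the test. Its signals were 28.1, 22.1 and 24.9 in the wild-type mice, 32, 26.2 and 27.5 in the SMA mice, and 44.5, 50.6 and 48.6 in the transplanted mice. All 3 transplanted arrays read above all others, near the background lines of these arrays (43.2, 55.2 and 50.5). The other alpha, delta, epsilon, gamma, pi and theta subunits (Gabra3, Gabra6, Gabrd, Gabre, Gabrg3, Gabrp and Gabrq) read 0.8 to 32.7. The rho subunits Gabrr1 and Gabrr2, known from the retina, read 0.9 to 33.6.

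Gabbr1 makes the GABA-binding subunit of the GABA-B receptor, which pairs with Gabbr2. Its signals were 1360.5, 1063.9 and 817.7 in the wild-type mice, 866.2, 845.4 and 843.7 in the SMA mice, and 885.7, 1243.4 and 946.3 in the transplanted mice. The SMA arrays were close together (852 ± 12.5, SD, n = 3) and inside the wide range of wild type (1080 ± 272). They lay below all 3 transplanted arrays. The gene has 4 probe sets, and the one next in brightness, at 100.1 to 228.4, gave 0.03 for SMA minus wild type and 0.20 for transplanted SMA minus SMA, where the brightest gave -0.31 and 0.25.

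Glycine is the main fast inhibitor of spinal motor neurons, and Glrb makes the beta subunit that ties the receptor to gephyrin at the synapse. Its signals were 94.4, 96 and 118.3 in the wild-type mice, 34.5, 66.5 and 86.8 in the SMA mice, and 43.9, 115.8 and 97 in the transplanted mice. Every SMA array read below every wild-type array, and transplanted SMA spanned both. The 3 measured alpha subunits, which bind glycine, were below the line. Glra1 of adult spinal receptors read 5.7 to 19.3, Glra3 0.8 to 7.2 and Glra4 1.1 to 13.2. Glra2, another alpha subunit, was not among the genes measured.

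**Figure D2:**
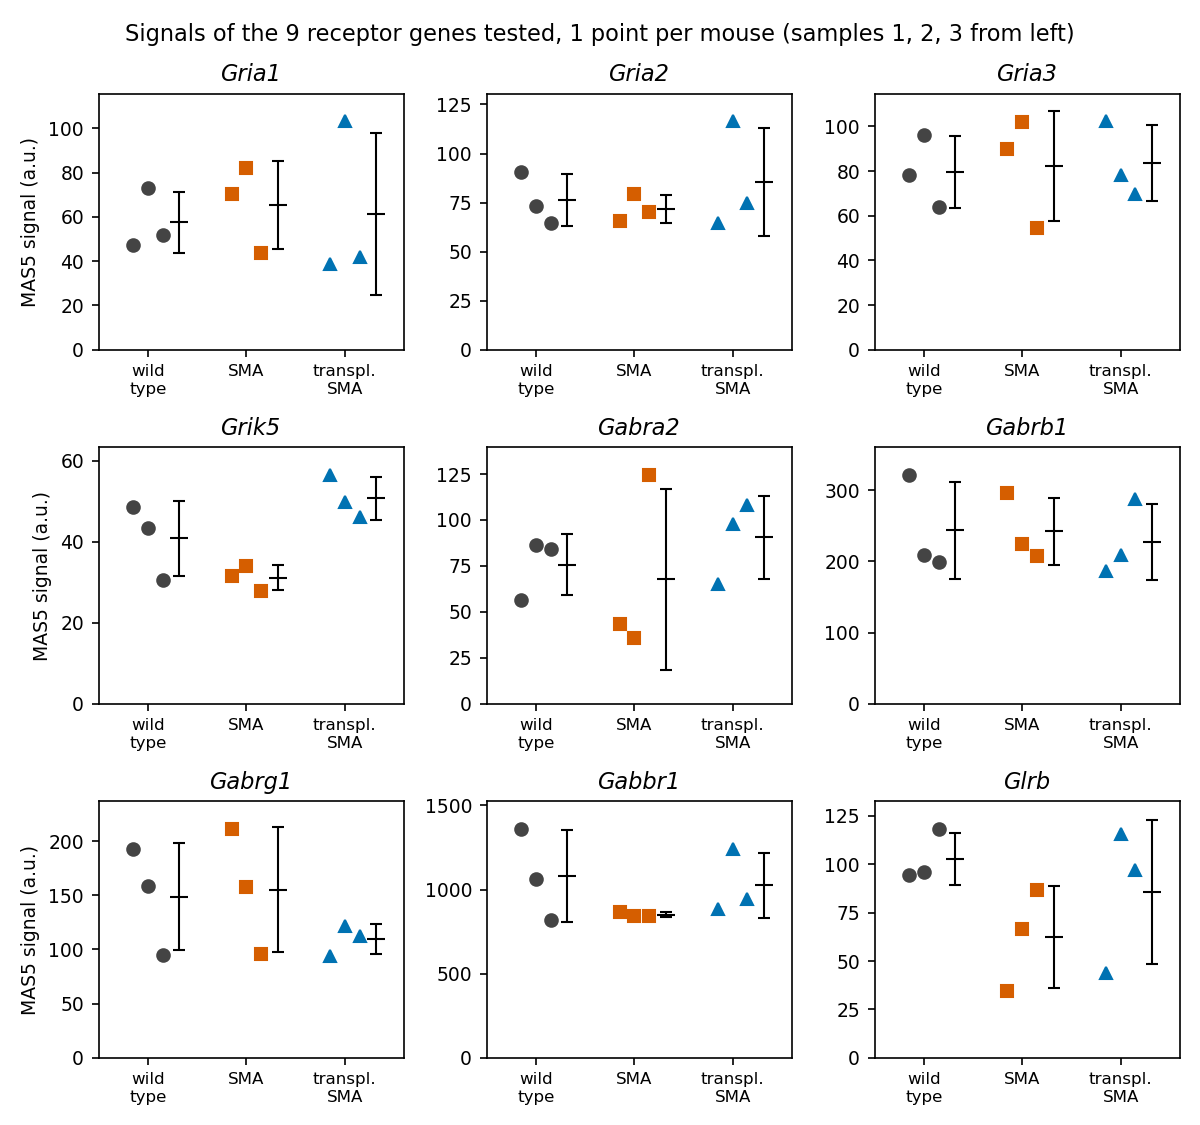
MAS5 signals (arbitrary units, linear axis from 0) of the 9 receptor genes that were tested, with 1 point per mouse and, beside each group, the mean with its SD (n = 3). Grik5 in transplanted SMA lies above all 3 SMA points, Glrb in SMA lies below all 3 wild-type points, and Gabra2 spreads from 35.7 to 124.5 within SMA.

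SMA was first set against wild type, for the effect of the disease genotype. Of the 9 receptor genes tested, 0 passed an adjusted p of 0.05 with limma and 0 had an unadjusted p under 0.05, against 0.0442% and 6.04% of all probe sets tested. Glrb had the smallest p, with 103 ± 13.4 in wild type and 62.6 ± 26.4 in SMA (SD, n = 3; log2 difference -0.65, SE 0.32, 95% interval -1.35 to 0.05, limma adjusted p = 0.846). Without SMA 1 its value was -0.36, and without SMA 3 -0.88. Next came Gabbr1 at -0.31 (SE 0.2, adjusted p = 0.936), Grik5 at -0.26 (SE 0.18, adjusted p = 0.94) and Gabra2 at -0.26 (SE 0.34), which was -0.71 without SMA 3, 0.01 without SMA 2 and 0.63 without both SMA 1 and SMA 2. Gria1 gave 0.13 (SE 0.31, adjusted p = 1), and Gria2, Gria3, Gabrb1 and Gabrg1 lay between -0.07 and 0.04.

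The 9 values had a median of -0.07, beside 0.01 over all probe sets tested, and 4 were positive (51% of all). Glrb was the 1 gene of the 9 whose groups did not overlap, where 11.4% of all tested probe sets did not (5.31% higher in SMA and 6.06% lower). Over all 32 receptor genes, 7 did not overlap (21.9%, against 10.6% of all probe sets, 6.27% higher and 4.34% lower): Gabre, Gabrr1, Grik2 and Grik3 were higher in SMA, and Gria4, Gabrq and Glrb lower. The 6 apart from Glrb were below the line on every array, at signals of at most 36.5, so no level is read from them.

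The comparison of transplanted SMA with SMA addresses the effect of the graft. Of the 9 receptor genes, 0 passed the adjusted threshold with limma, and 0% of all probe sets did. Grik5 was the 1 with an unadjusted p under 0.05 (4.77% of all probe sets), at 31.1 ± 3.12 in SMA and 50.8 ± 5.32 in transplanted SMA (SD, n = 3; log2 difference 0.50, SE 0.18, 95% interval 0.11 to 0.89, limma adjusted p = 0.933). All 3 SMA signals were below the background line, and so were those of transplanted SMA 2 and 3, so the size of this difference is uncertain. Grik5 was higher in 3 of 3 transplanted animals than in any SMA animal, where 4.43% of all tested probe sets also were. Its difference was 0.44 to 0.55 when any one array was left out. The gene had the smallest p of the 9 on these same arrays, so these values add no separate support. Beside it, the summed signal of 11 motor neuron markers was 335 to 742 on the transplanted arrays, against 194 to 326 in SMA and 241 to 330 in wild type. In that list Isl2 gave 0.72 (SE 0.27), Nefh 1.02 (SE 0.4) and Ache 0.67 (SE 0.27), each at an adjusted p of 0.933, while Slc18a3, Slc5a7, Isl1, Mnx1 and Lhx3 stayed below the line on all arrays. Their part in the Grik5 value was not tested.

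Further values in this comparison were 0.47 (SE 0.34) for Gabra2, -0.40 (SE 0.29) for Gabrg1, 0.25 (SE 0.2) for Gabbr1 and 0.35 (SE 0.32) for Glrb, with adjusted p of 0.933 to 0.935. Gabra2 gave 0.92 (adjusted p = 0.401) without SMA 3 and -0.42 without both SMA 1 and SMA 2. The median of the 9 was 0.18, beside 0 over all probe sets tested, and 6 were positive (50.3% of all). Grik5 and Gabbr1 had groups that did not overlap (9.11% of all tested probe sets, 4.43% higher and 4.68% lower). Over all 32 receptor genes, 5 were higher without overlap and 0 lower (15.6%, against 9.64% of all probe sets in either direction, 5.36% higher and 4.28% lower), the others being Gabrb2, Gabrq and Grin2a. Of the 5, Gabrq and Grin2a were below the line on every array, so no level is read from these 2. Gabrb2 and Grik5 each passed it on 0 of 3 SMA arrays and 1 of 3 transplanted arrays, so their levels are uncertain too. The SMA arrays are the same as in SMA minus wild type, so a gene that read low in them by chance gives opposite signs in both comparisons.

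The last comparison sets transplanted SMA against wild type. Of the 9 receptor genes 0 passed with limma, and 0 had an unadjusted p under 0.05, against 0% and 6.55% of all probe sets. Grik5 gave 0.24 (SE 0.18, adjusted p = 0.874), Gabrg1 -0.35 (SE 0.29, adjusted p = 0.893), Glrb -0.30 (SE 0.32, adjusted p = 0.926), Gabra2 0.21 (SE 0.34, adjusted p = 0.958) and Gria2 0.11 (SE 0.21, adjusted p = 0.968). The median of the 9 was -0.01, the same as over all probe sets tested, and 4 were positive (48.5% of all). All 9 overlapped, where 14.1% of all tested probe sets did not (7.11% higher and 7.04% lower). Over all 32 genes, 4 were higher in transplanted SMA without overlap (12.5%, against 13.7% of all probe sets, 8.72% higher and 4.97% lower), which were Gabrb2, Gabre, Gabrg3 and Grik2. The 3 apart from Gabrb2 were below the line on every array, so no level is read from them. Gabrb2 passed it on 1 of 3 wild-type arrays and 1 of 3 transplanted arrays, so its level is uncertain too.

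Gabrb2 entered a fit when no filter on dim probe sets was used. There it gave 0.64 (SE 0.17, limma adjusted p = 0.565) for transplanted SMA minus wild type and 0.52 (SE 0.17, adjusted p = 0.877) for transplanted SMA minus SMA, and neither passed. Gabrb2 was singled out with its signals known. In that fit 3 of 32 receptor genes had an unadjusted limma p under 0.05 in SMA minus wild type (1227 of 22626 probe sets). In transplanted SMA minus SMA 2 did (1234), and in transplanted SMA minus wild type 4 did (1524). Among them were Gabrq (-0.62) and Gabre (0.50) in the first and Gabrg3 (0.56) in the last, below the line on every array. Of the motor neuron markers given beside Grik5, Isl2 read 62.6 to 119.8 on the transplanted arrays and 26.4 to 59.6 on the others. Nefh and Ache on transplanted SMA 1 and 3 lay within the range of wild type. The part of these markers in the Gabrb2 values was not tested.

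**Figure D3:**
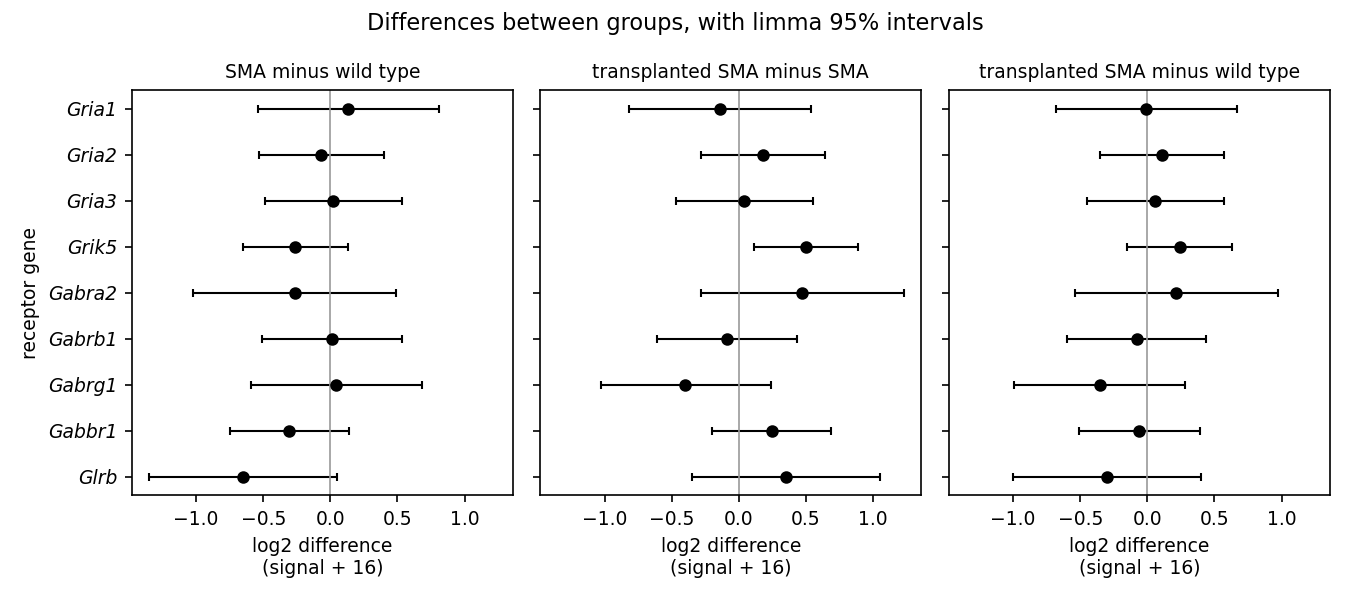
Log2 differences (on signal + 16) of the 9 receptor genes tested in the 3 comparisons, with limma's 95% intervals; a value right of the vertical line is higher in the group named first. The interval of Grik5 in transplanted SMA minus SMA, 0.11 to 0.89, is the one of the 27 that lies on one side of 0; it is not adjusted for the number of genes, and Grik5 was below the background line on all SMA arrays.

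The intervals give the size of change these arrays could still hold. Standard errors of the 9 genes ran from 0.18 for Grik5 to 0.34 for Gabra2, and the spread within groups had a median of 0.31 over the 9 genes and 0.26 over all probe sets tested. For Gabrb1, the interval was -0.51 to 0.53 for SMA minus wild type and -0.61 to 0.43 for transplanted SMA minus SMA. For Gria3 these were -0.49 to 0.53 and -0.47 to 0.55. Changes inside these limits are not excluded by 3 arrays per group. The limits are not adjusted for the number of probe sets, so they are not limits of detection. Larger values were not called either, such as Nefh at 1.02 in transplanted SMA minus SMA (limma adjusted p = 0.933).

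Genes that hold, move or supply these receptors gave no call either. Of 20 tested partners of excitatory receptors, such as the PSD-95 family and Homer scaffolds, 0 passed in each comparison with limma, and the smallest adjusted p were 0.837, 0.933 and 0.754. The scaffold gene Dlg1 had means of 332 in SMA and 504 in wild type (-0.60, SE 0.28, adjusted p = 0.837). Of 12 partners of GABA and glycine receptors, all above the line on every array, 0 passed, and gephyrin (Gphn), which anchors Glrb, gave -0.15 (SE 0.23) for SMA minus wild type. Of 12 tested genes that make, load or take up the transmitters, 0 passed, and the glial glutamate transporter Slc1a2 gave 0.87 (SE 0.32, adjusted p = 0.933) for transplanted SMA minus SMA and 0.86 (adjusted p = 0.699) for transplanted SMA minus wild type. The medians of these 3 lists lay between -0.03 and 0.12 in all comparisons.

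**Figure D4:**
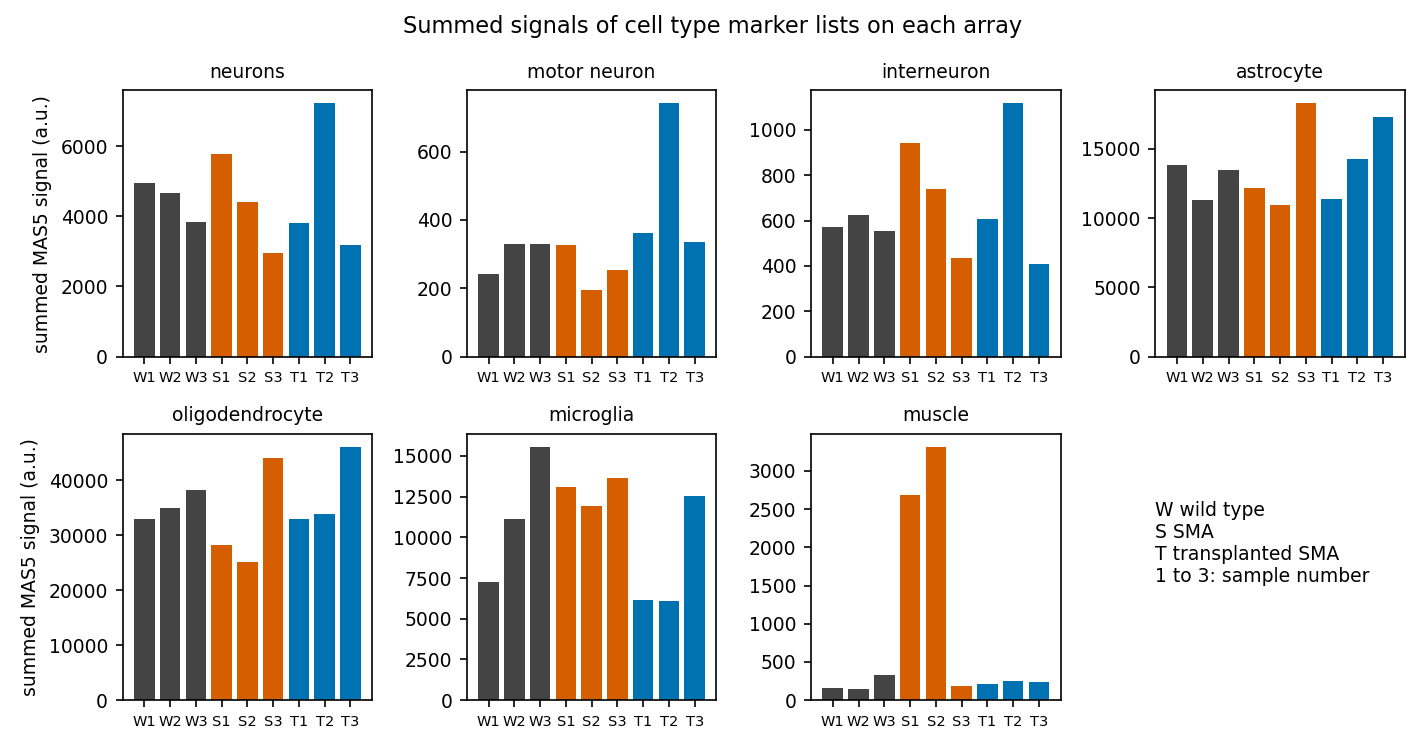
Summed MAS5 signal (arbitrary units) of the measured genes of 7 marker lists on each array, with bars from 0 for wild type (W), SMA (S) and transplanted SMA (T), samples 1 to 3. The muscle list is high on SMA 1 and SMA 2 alone, and the motor neuron list is highest on transplanted SMA 2, at 742.

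General neuronal genes, summed over 15, read 3826 to 4938 in wild type, 2964 to 5762 in SMA and 3191 to 7223 in transplanted SMA, and these ranges overlapped. Of the 9 receptor genes tested, 5 had their highest transplanted signal on transplanted SMA 2, the array with the most neuronal signal (Gria1, Gria2, Gabrg1, Gabbr1 and Glrb). The other 4 peaked elsewhere, Gria3 and Grik5 on transplanted SMA 1 and Gabra2 and Gabrb1 on transplanted SMA 3. The share of all probe sets that peak on transplanted SMA 2 was not computed. In SMA, neuronal signal was highest on SMA 1 (5762), where Gabrb1, Gabrg1 and Gabbr1 peaked within the group. Glrb (34.5) and Gria2 (65.8) were lowest of the SMA arrays there. In wild type it was highest on wild type 1 (4938), where Gria2, Gabrb1, Gabrg1, Gabbr1 and Grik5 peaked. Interneuron markers summed to 553 to 623 in wild type, 433 to 942 in SMA and 408 to 1117 in transplanted SMA, and genes of meninges and fibroblasts to 953 to 4894, 1748 to 3136 and 1811 to 8259. Microglial genes read 7238 to 15565 in wild type, 11921 to 13648 in SMA and 6085 to 12524 in transplanted SMA. The part of cell content in the receptor values was not tested.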

How the data were processed

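RNA of microdissected cells was labelled after double amplification, per the labels' protocols. Each probe set has 1 deposited value per array, an intensity on a linear scale that the authors computed with MAS5, per the submitters' processing notes (no version is given in the sources used here). With 2% trimmed from both ends, all arrays had a mean of 100, and no scaling was added. Of 22690 probe sets, 64 controls were left out. Of the other 22626, 20380 named 1 symbol, 691 several and 1555 none in the platform annotation, which can be old; of 20351 found in RefSeq by gene ID, 0 had another symbol there, and all 32 receptor genes were found.

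Signals were taken to log2 after adding 16. The brighter 50% of probe sets by mean (11313, from a mean of 5.63) was tested with limma 3.58.1 in R 4.3.3 (lmFit, eBayes with trend) in 1 model of 3 group means, two-sided, with Benjamini-Hochberg adjustment within a comparison. Code was tested on simulated data. Array totals were 3264246 to 3508703; the number of arrays limits the precision. Nothing says whether the mice shared litters. The p-values treat the arrays as independent, and may be too small if mice of a group shared a litter.

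The receptor genes and the lists were chosen with earlier results of these data known. Receptor genes that were tested were named, the 5 of smallest p per comparison with statistics, and up to 3 genes per list. Gphn and markers were named, and Gabrb2 was followed in the fit without a filter, after their values were seen. Alternatives covered scaling, pseudocount, filter, variance model, array weights, the sample number as a block, the probe set per gene, the background line and each array left out. Fits without SMA 1 and SMA 2 together, and without the third sample of each group, were chosen after seeing the data.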

Additional observations from a re-analysis of the deposited data

How the results depend on the processing

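Of the receptor genes, 0 passed the threshold in each of the 3 comparisons under all alternatives run, including no filter, with 32 genes tested; the smallest adjusted p over 603 repeats of the 27 differences was 0.401. Of the 27 differences, 8 kept their sign in every alternative and 19 turned at least once; none of these was called. The median of the tested receptor genes moved by less than the spread between replicates except with the brighter 25% of probe sets for transplanted SMA minus SMA (-0.09, where 3 genes were left). With the 90th percentile as background line, 8 genes were above it on all 9 arrays in place of 5.

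Probe sets past the threshold in SMA minus wild type numbered 5, and 2 with the brighter 25%, 0 without both SMA 1 and SMA 2, 14 without the arrays numbered 3, and 2 to 13 with one array left out. In transplanted SMA minus SMA there were 0, and 6 without the arrays numbered 3 and 0 to 4 with one array left out (4 without SMA 3). In transplanted SMA minus wild type there were 0, and 2 with a pseudocount of 1, 8 with array weights, 8 without both SMA 1 and SMA 2, 4 without the arrays numbered 3, 8 with only the 6 arrays compared, and 0 to 7 with one array left out (7 without SMA 3). The cause was not tested.

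Arrays of one sample number did not all deviate together from their group means (correlations -0.083 to 0.453 over 9 pairs), so the numbers were not taken as pairs. Pairs of different number ran from -0.472 to 0.332. With the number as a block, 869, 780 and 963 probe sets had an unadjusted limma p under 0.05, against 683, 540 and 741 without it. Whether the number marks a shared batch was not tested. With the sample number as a replicate block, 0 receptor genes passed in each comparison, and Glrb in SMA minus wild type stayed at -0.65 (SE 0.22, adjusted p = 0.542); probe sets past the threshold were 5, 0 and 0. Signals near the background line limit what can be read from the 23 genes not tested and from Grik5, above it on 3 of 9 arrays.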
